A study of Homo sapiens with 4 samples.

Results

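ACTB, ACTG1, SRF, VCL, FLNA, TPM1, MYL9, TAGLN2, CCN1 and CCN2 are 10 genes of the actin cytoskeleton and of its transcriptional control, taken by symbol from a count table of 60708 genes. They were chosen by what they encode, though with earlier results of these data known. The counts come from 4 TT-seq libraries of HEK293, a human embryonic kidney cell line in which the endogenous RPB1, the catalytic subunit of RNA polymerase II, carried a degron, a tag through which auxin triggers degradation. The cells were transiently transfected with a plasmid for RPB1 whose C-terminal domain (CTD) has 52 repeats, either of wild-type sequence (52X WT, 2 libraries) or with the threonine at position 4 of every repeat changed to alanine (52X T4A, 2 libraries). After 48 h of transfection all cells, WT and T4A alike, received auxin for 48 h, and nascent RNA was labeled with 4-thiouridine for 20 min, so the libraries show RNA made in a short window, introns included. There was no library without auxin or without a transfected plasmid, and the labels do not say whether the replicates came from separate cultures, so p-values measure only the spread between these libraries.

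Actin exists as monomers and as filaments. Monomers bind the coactivators MRTFA and MRTFB and hold them away from the nucleus, and when monomers are used up in filaments the coactivators join SRF, a DNA-binding factor, on CArG boxes, which are a run of A and T bases between CC and GG. Among the genes that SRF activates are the actins, many proteins that bind or contract filaments, and SRF itself. Filament tension also acts on YAP1 and WWTR1 (TAZ), which work with TEAD factors, and CCN1 and CCN2, secreted matricellular proteins, are known targets of both routes. SRF target genes are therefore used as a readout of the state of the cytoskeleton, and ACTB itself is a common reference transcript.

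The DNA before the start of 4 of the genes is shown because it holds the sites by which these genes are usually sorted into SRF and TEAD targets. Promoter sequences were taken from a set of RefSeq promoters (GRCh38.p14), in which 7 of the 10 genes had an entry. ACTB, MYL9 and CCN1 had none in this set, though RefSeq lists these genes. Each line gives the 250 bases before the start, 5′ to 3′ on the strand of the gene. Capitals mark a CArG box, the TEAD motif GGAATG or its other strand CATTCC, and TATAAA on the strand of the gene. The windows are chr17:81512800-81513049 on the minus strand for ACTG1, chr6:43171019-43171268 on the plus strand for SRF, chrX:154374635-154374884 on the minus strand for FLNA and chr6:131951373-131951622 on the minus strand for CCN2.
ACTG1: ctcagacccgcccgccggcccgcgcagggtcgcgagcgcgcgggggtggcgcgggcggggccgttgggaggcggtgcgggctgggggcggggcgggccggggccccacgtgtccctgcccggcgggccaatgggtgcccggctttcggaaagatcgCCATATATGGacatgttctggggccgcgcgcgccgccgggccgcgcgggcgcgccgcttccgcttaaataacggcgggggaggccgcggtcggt
SRF: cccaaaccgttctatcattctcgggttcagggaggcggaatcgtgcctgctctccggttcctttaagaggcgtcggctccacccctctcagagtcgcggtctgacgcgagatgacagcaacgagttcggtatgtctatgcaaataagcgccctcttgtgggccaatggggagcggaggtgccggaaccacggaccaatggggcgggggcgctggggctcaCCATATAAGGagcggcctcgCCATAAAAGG
FLNA: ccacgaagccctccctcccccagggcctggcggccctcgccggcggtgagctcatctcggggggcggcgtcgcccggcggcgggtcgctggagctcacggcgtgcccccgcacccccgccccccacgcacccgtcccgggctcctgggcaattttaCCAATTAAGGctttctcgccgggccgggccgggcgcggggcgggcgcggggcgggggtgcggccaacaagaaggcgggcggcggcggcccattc
CCN2: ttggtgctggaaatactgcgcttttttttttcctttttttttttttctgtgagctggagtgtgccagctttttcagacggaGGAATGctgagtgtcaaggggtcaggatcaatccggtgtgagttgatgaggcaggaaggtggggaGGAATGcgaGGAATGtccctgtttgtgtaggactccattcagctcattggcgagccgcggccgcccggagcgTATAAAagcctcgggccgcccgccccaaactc

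ACTG1 and FLNA each held 1 CArG box, in both cases from 94 to 85 bases before the start. SRF held 2 CArG boxes, from 30 to 21 and from 10 to 1 bases before its first start. A CArG box was found, on either strand, in 407 of 35116 such windows (1.16%), and 2 or more in 11 windows. CCN2 held no CArG box and 3 TEAD motifs, which began 169, 104 and 95 bases before the start, together with TATAAA at 32 to 27 bases. A TEAD motif was present in 11.9% of all windows, 3 or more in 29 windows (0.0826%), and TATAAA in 6.80% of windows. VCL held 1 TEAD motif, 171 to 166 bases before its start. The windows of TPM1 and TAGLN2, and that of the second SRF start, held none of these letters. The TPM1 window (chr15:63048239-63048488, plus strand) lies inside the listed span of TPM1, which starts at 63042632. The ACTG1 window also lies inside its listed span, which starts at 81523847 on the minus strand. So do the VCL window (chr10:73997866-73998115, plus strand, listed start 73995193) and the TAGLN2 windows at 159923735-159923984 and 159924596-159924845 (minus strand, listed start 159925507). For TPM1, ACTG1 and VCL the bases before the listed start were not searched. No match overlapped another. These are matches of letters only.

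The 4 libraries held 33188536 to 45605027 counts. On log2 CPM (counts relative to the library size, scaled by the TMM factors of edgeR) over the 23321 genes tested, the WT libraries correlated at 0.9913 and the T4A libraries at 0.9786, and T4A replicate 1 correlated with the WT libraries at 0.9749 and 0.9745, below the 0.9888 and 0.9884 of T4A replicate 2. T4A replicate 1 thus stood apart, and ACTB, ACTG1, SRF, FLNA, MYL9 and TAGLN2 are also given without it. Of counts from 1 to 20, between 82.1% and 86.2% were even numbers, as arises when both mates of a read pair are counted, so errors from counting alone are understated. The summed level of the 7 markers of HEK293 and embryonic kidney was 160 and 165 CPM in WT and 135 and 155 CPM in T4A, mostly from NEFL (1887 to 3376 counts) and EYA1 (1872 to 2699), while PAX2 held 80 to 96 counts, PAX8 8 to 34 and NEFM 0 to 6. Markers of other cell types were not all absent. The smooth muscle markers summed to 43.0 to 48.2 CPM over the 4 libraries, mostly from SMTN (654 to 1030 counts) and SYNPO2 (601 to 816), with DES at 0 to 6 counts, and the endothelial ones to 10.2 to 13.2 CPM, mostly from VWF (228 to 270 counts). Those of fibroblasts summed to 2.90 to 4.28 CPM and those of blood cells to 0.272 to 1.40 CPM. The part of other cell types in the results was not tested. POLR2A is the gene of RPB1, and whether its reads came from plasmid or chromosome was not tested. It had 9640 and 8720 CPM in the WT libraries and 7492 and 8083 CPM in the T4A libraries (log2 fold change −0.24 ± 0.25 (SE), adjusted p = 0.659, edgeR).

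All 10 genes were measured and passed the filter on low counts. A gene was called changed at a Benjamini-Hochberg adjusted p below 0.05 in edgeR's quasi-likelihood test with a fold change above 1.5. None of the 10 was called, against 1 of all 23321 genes tested (0.00429%). At an unadjusted p below 0.05, ACTB and ACTG1 were lower in T4A and none was higher, where the background was 8.02% of genes lower and 7.45% higher. Both T4A libraries lay below both WT libraries for 3 genes (ACTB, ACTG1 and SRF; 24.7% of all tested genes) and above them for 1 gene (TAGLN2; 24.8% of all tested genes). The median log2 fold change of the 10 genes was −0.19, beside −0.00076 over all genes tested, and 8 of the 10 values were negative. DESeq2 called none of the 9 to which it gave an adjusted p, and gave MYL9 none. In bulk RNA of this kind, fewer cells that transcribe a gene and less RNA per cell cannot be told apart.

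**Figure D1:**
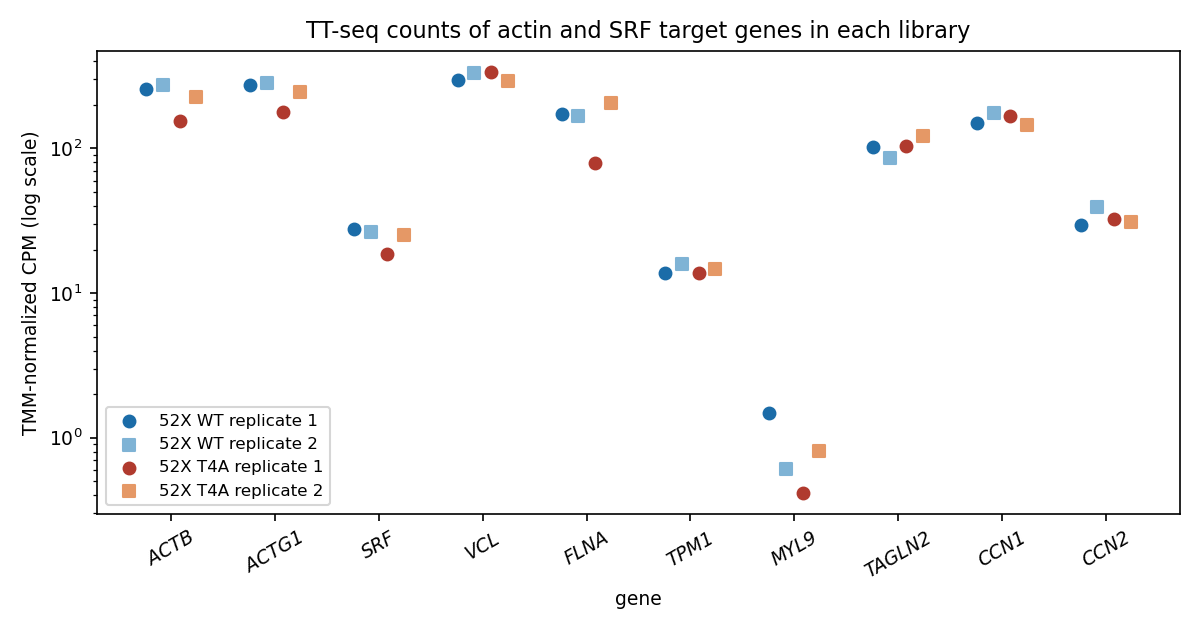
TMM-normalized CPM on a log axis for each of the 10 genes in each of the 4 libraries, 1 point per library. T4A replicate 1 lies lowest for ACTB, ACTG1, SRF, FLNA and MYL9, while the 4 points of VCL, TPM1 and CCN1 lie closer together. CCN2 runs from 29.5 CPM in WT replicate 1 to 39.6 CPM in WT replicate 2.

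The pair of cytoplasmic actins gave the 2 lowest unadjusted p-values of the 10 genes. ACTB (β-actin; chr7:5526409-5563902, minus strand, GRCh38) had 257 and 274 CPM in WT replicates 1 and 2 and 154 and 227 CPM in T4A replicates 1 and 2. Its log2 fold change was −0.48 ± 0.16 (SE), with an unadjusted p of 0.0182 and an adjusted p of 0.255 (edgeR). The groups did not overlap, yet T4A replicate 2 was nearer to the WT libraries than to T4A replicate 1. The T4A libraries differed from each other by −0.56 on the log2 scale, against −0.09 between the WT libraries. Without T4A replicate 1 the log2 fold change of ACTB was −0.22. Without T4A replicate 2, which left a single T4A library, it was −0.80.

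ACTG1 (γ-actin; chr17:81509413-81523847, minus strand), the other actin of non-muscle cells, showed the same order of libraries. It had 273 and 284 CPM in WT and 179 and 245 CPM in T4A, a log2 fold change of −0.39 ± 0.14 (SE; adjusted p = 0.271, edgeR). Here too the groups did not overlap and T4A replicate 1 was the lowest library. The log2 fold change was −0.18 without T4A replicate 1 and −0.65 without T4A replicate 2. The ratio of ACTG1 to ACTB CPM was 1.06 and 1.04 in WT and 1.16 and 1.08 in T4A. Within a library the 2 actins thus kept nearly one ratio, while ACTB alone ran from 67.5% of its mean over the libraries in T4A replicate 1 to 120% in WT replicate 2.

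Scaling every library to its ACTB count, as is done when this gene serves as the reference, raised the median log2 fold change of all genes from −0.00076 to 0.53. It then called 204 genes higher and 0 lower in T4A, and turned the sign of ACTG1 (0.10), SRF (0.18), FLNA (0.15), TPM1 (0.47), CCN1 (0.49) and CCN2 (0.42). Relative to that shift of all genes, each of these 6 genes still lay lower.

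Reads of near-identical copies bear on the actins, since only reads with a unique place were counted. The 12 listed ACTB pseudogenes held 2 to 9 counts per library in all, and the 21 listed ACTG1 pseudogenes 192 to 266 counts, which is 2.13% to 3.20% of the ACTG1 count. The listed span of ACTB (37494 bp) is also longer than its RefSeq gene (3454 bp), as that of ACTG1 is (14435 against 2829 bp), so reads outside the RefSeq gene could enter both counts.

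The other actin genes were read at lower levels. ACTA2, the smooth muscle α-actin and a classical SRF target, had 32.7 and 35.98 CPM in WT and 24.8 and 28.2 CPM in T4A. Its groups did not overlap, and the 2 T4A libraries lay close to each other (log2 fold change −0.38 ± 0.12 (SE), unadjusted p = 0.0124, adjusted p = 0.245, edgeR; −0.28 without T4A replicate 1). ACTA1, the skeletal muscle actin, held 70 and 66 counts in WT and 29 and 54 in T4A (log2 fold change −0.43 ± 0.37 (SE), and −0.062 without T4A replicate 1). ACTG2 and ACTBL2 were near the floor, with 8 and 10 against 24 and 19 counts and with 6 and 10 against 14 and 20 counts, and ACTC1 (6 to 10 counts) did not pass the filter.

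SRF (chr6:43171269-43181506, plus strand), the transcription factor that the route is named for, was read at 27.6 and 26.3 CPM in WT and 18.5 and 25.1 CPM in T4A. Its T4A replicate 2 lay just under WT replicate 2, so that the absence of overlap rests on a small gap. The log2 fold change was −0.30 ± 0.16 (SE; adjusted p = 0.379, edgeR), and −0.09 without T4A replicate 1. Without T4A replicate 2 it was −0.56, short of the 1.5-fold limit.

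Among the filament-binding and contractile genes, FLNA (filamin A, which crosslinks filaments; chrX:154348524-154374634, minus strand) had the widest gap of the 10 genes between the T4A libraries. It had 173 and 166 CPM in WT but 79.2 and 206 CPM in T4A replicates 1 and 2, so 1 T4A library was the lowest and the other the highest of the 4. The T4A libraries differed by −1.38 on the log2 scale, with a counting error of 0.033, and only 4.52% of all tested genes had a wider gap between them. The log2 fold change over all libraries was −0.25 ± 0.34 (SE; adjusted p = 0.744, edgeR). It was 0.29 without T4A replicate 1 and −1.11 without T4A replicate 2, opposite in sign.

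VCL (vinculin, a linker of filaments to adhesions; chr10:73995193-74121363, plus strand) was level across the groups. It had 299 and 331 CPM in WT and 339 and 292 CPM in T4A, with a log2 fold change of 0.0003 ± 0.11 (SE), and the WT values lay between the T4A values. Of its 126171 bp, 103392 bp lie outside 1 other gene of the same strand, where reads can be assigned to VCL alone. TPM1 (tropomyosin 1, which coats filaments; chr15:63042632-63071915, plus strand) was equally level, at 13.8 and 15.8 CPM in WT and 13.8 and 14.7 CPM in T4A (−0.06 ± 0.14).

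TAGLN2 (transgelin 2, a filament-binding protein of non-muscle cells; chr1:159918107-159925507, minus strand) was the member whose T4A libraries both lay above the WT libraries. It had 102 and 85.5 CPM in WT and 104 and 121 CPM in T4A, a log2 fold change of 0.26 ± 0.12 (SE; unadjusted p = 0.0519, adjusted p = 0.327, edgeR). The gap between WT replicate 1 and T4A replicate 1 was small, and the WT libraries differed from each other by 0.26 on the log2 scale. The log2 fold change of TAGLN2 was 0.13 without WT replicate 2 and also 0.13 without T4A replicate 2, against 0.39 without WT replicate 1 and 0.38 without T4A replicate 1. MYL9 (a regulatory light chain of myosin; chr20:36541497-36551447, plus strand) was close to the floor, with 58 and 27 counts in WT and 14 and 28 in T4A. Its log2 fold change of −0.76 came with an SE of 0.55 (adjusted p = 0.522, edgeR). It was −0.0066 without WT replicate 1, −1.28 without WT replicate 2, −0.35 without T4A replicate 1 and −1.32 without T4A replicate 2, so single libraries set its size. A gene on the other strand of its locus held 507 to 684 counts. The part of that gene in the MYL9 counts was not tested.

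The matricellular genes were level. CCN1 (CYR61; chr1:85580761-85584589, plus strand) had 150 and 177 CPM in WT and 168 and 144 CPM in T4A (log2 fold change −0.07 ± 0.12 (SE)). CCN2 (CTGF; chr6:131948176-131951372, minus strand), whose promoter carried the 3 TEAD motifs shown above, had 29.5 and 39.6 CPM in WT and 32.4 and 31.0 CPM in T4A (−0.13 ± 0.15). For both genes the WT libraries differed from each other by more than the group means did.

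**Figure D2:**
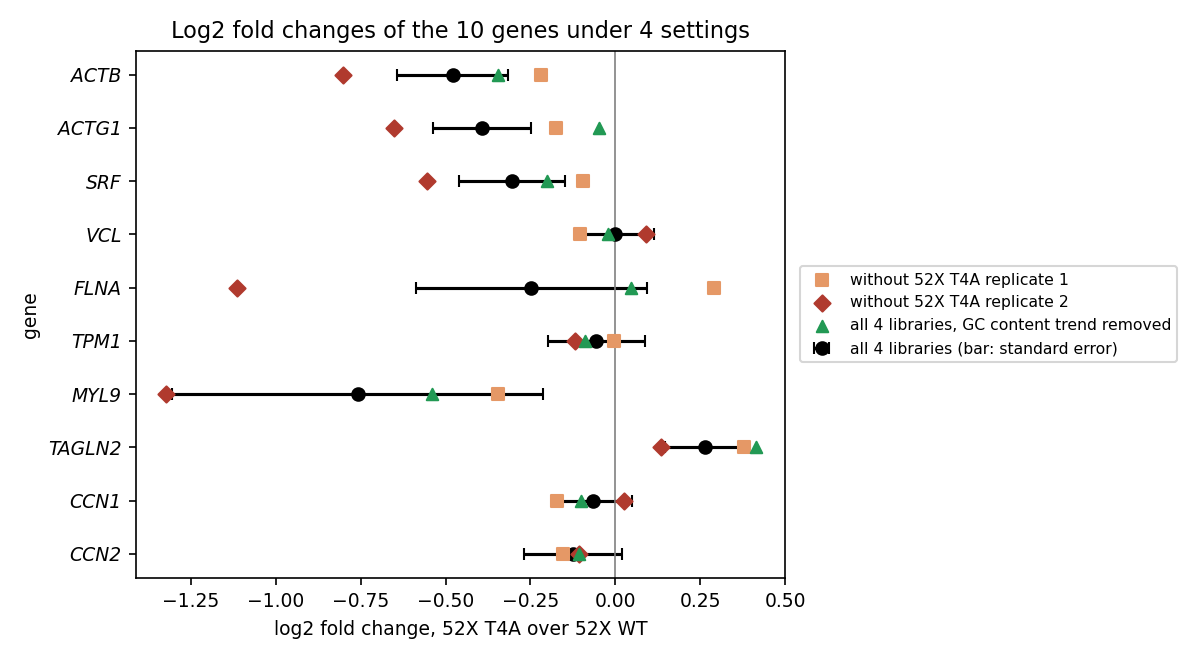
Log2 fold changes of T4A over WT for the 10 genes from all 4 libraries (black, with the standard error), without either T4A library, and with the GC content trend removed. For ACTB, ACTG1, SRF and FLNA the value without T4A replicate 2 (−0.80, −0.65, −0.56 and −1.11) lies far to the left of the value without T4A replicate 1 (−0.22, −0.18, −0.09 and 0.29).

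The gap between the T4A libraries went with base composition. T4A replicate 1 lay below T4A replicate 2 for 7 of the 10 genes, with a median difference of −0.33 on the log2 scale, beside 0.05 over all genes tested. ACTB, ACTG1, SRF, FLNA, MYL9 and TAGLN2 lie in the highest of 5 equal GC classes of the tested genes (52.6% to 83.9% of the gene span). Over all 4633 genes of that class the median difference between the T4A libraries was −0.44 and the median log2 fold change of T4A over WT was −0.15, against 0.13 and 0.02 in the lowest class. VCL (41.5% GC) and TPM1 (45.1%) lie in the second and the third class and CCN1 (48.3%) and CCN2 (52.3%) in the fourth. Across the 109 listed genes, all read in the same pair of libraries, the difference between the T4A libraries and GC content had an r of −0.725, and across 23162 tested genes an r of −0.525. For the WT pair the latter was 0.164.

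**Figure D3:**
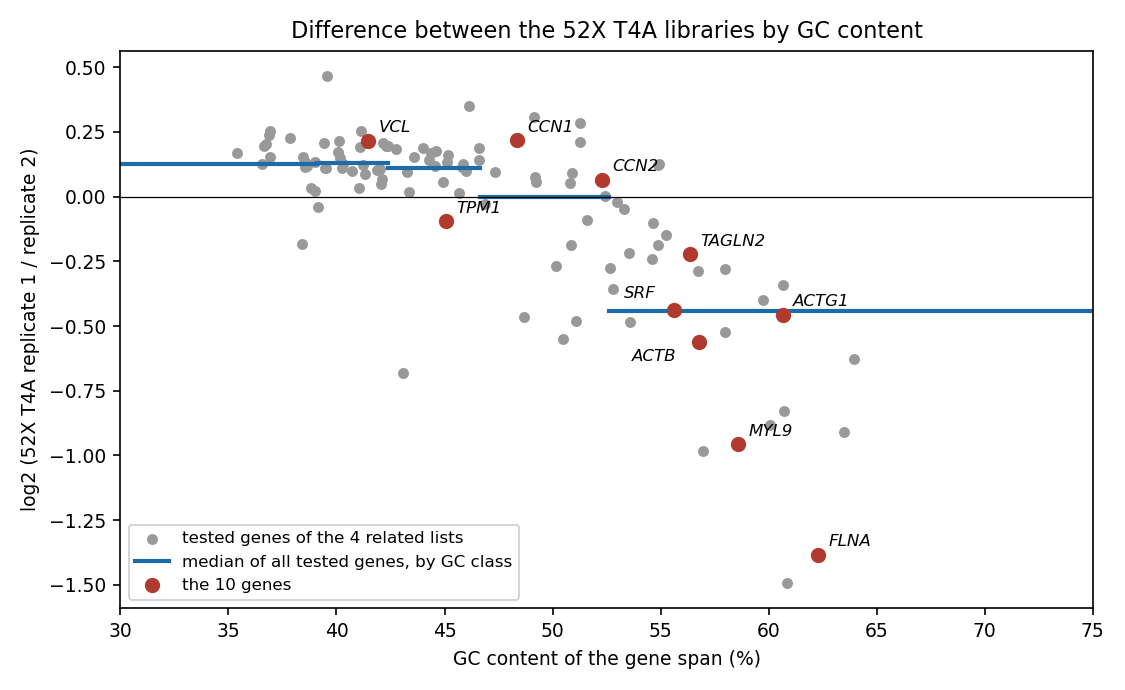
Log2 ratio of T4A replicate 1 to T4A replicate 2 against GC content of the gene span, for the 10 genes (red), the tested genes of 4 related lists (gray) and the median of all tested genes in each of 5 GC classes (blue). The 6 red points above 52.6% GC lie below 0, and the median of all genes drops from 0.13 in the lowest class to −0.44 in the highest.

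FLNC (60.9% GC), a filamin named here after its values were seen, differed between the T4A libraries by −1.49, near the −1.38 of FLNA (62.3% GC). With the trend of each library on GC content removed, an alternative added after the data were seen, the log2 fold change was −0.35 for ACTB (adjusted p = 0.0146, edgeR) and 0.41 for TAGLN2 (adjusted p = 0.00591). It was −0.20 for SRF, −0.05 for ACTG1 and 0.05 for FLNA, with adjusted p-values of 0.215, 0.831 and 0.764. ACTB and TAGLN2 then passed the adjusted p but stayed under 1.5-fold. None of the 10 genes was thus called, beside 338 of all 23162 genes, and their median was −0.09. In that setting 6199 of 23162 genes had an unadjusted p below 0.05 (edgeR), against 3607 of 23321 in the main test. How many of all genes passed the adjusted p alone is not given here. The trend was fitted on these 4 libraries, and whether base composition or another property of T4A replicate 1 set the gap was not tested.

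Per kb of the listed span, CCN1 had the highest level in WT at 42.6 ± 5.01 CPM per kb (SD, n = 2), followed by ACTG1 (19.3 ± 0.539), TAGLN2 (12.7 ± 1.58), CCN2 (10.8 ± 2.22), ACTB (7.08 ± 0.314) and FLNA (6.50 ± 0.178). The ranges of TAGLN2 and CCN2 overlapped, as did those of SRF (2.63 ± 0.0915) and VCL (2.50 ± 0.178). TPM1 (0.506 ± 0.0469) and MYL9 (0.105 ± 0.0618) were the lowest. Ranked by this level among all tested genes, 9 of the 10 lay above the middle, from 54.5% of genes below TPM1 to 99.6% below CCN1, while MYL9 had 32.4% of genes below it. With the length of the RefSeq gene in place of the listed span, ACTG1 (98.4) and ACTB (76.9 CPM per kb) moved ahead of CCN1 (51.2), which shows how far the order of the actins rests on the length taken. In T4A, 3 pairs of neighbours changed places: TAGLN2 (15.2 ± 1.66) and ACTG1 (14.7 ± 3.25), FLNA (5.47 ± 3.45) and ACTB (5.08 ± 1.38), and VCL (2.50 ± 0.264) and SRF (2.13 ± 0.454). In each pair the 2 means lay closer than the larger SD.

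Other genes of the routes were read from lists of known pathway members. None of the 28 other SRF-MRTF targets was called by edgeR, or by DESeq2 among the 22 to which it gave an adjusted p, and their median log2 fold change was −0.07. MICAL2, an actin oxidase that feeds the MRTF route, had 39.9 and 38.9 CPM in WT and 33.1 and 30.9 CPM in T4A (−0.30 ± 0.10 (SE), adjusted p = 0.255, edgeR), and MYL12B, a myosin light chain, had 49.8 and 52.9 against 66.0 and 61.6 CPM (0.31 ± 0.09, adjusted p = 0.237, edgeR). These 2 were the only ones at an unadjusted p below 0.05, 1 in each direction, beside 8.02% of all genes lower and 7.45% higher. Without T4A replicate 2, which left a single T4A library, FLNC stood at −1.48 and PDLIM7 at −0.85. CNN2 (calponin 2, −0.29 ± 0.25, and −0.096 without T4A replicate 1, its lowest library) and FBLIM1 (migfilin, 0.24 ± 0.21) had the next values by the rule for named genes.

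None of the 20 other YAP-TEAD targets was called by edgeR (median −0.04). CCDC80, an extracellular matrix protein, had the highest value, with 50.2 and 46.9 CPM in WT and 87.1 and 79.9 CPM in T4A, both T4A libraries well above both WT libraries (0.78 ± 0.10 (SE), adjusted p = 0.105, edgeR). RBMS3, an RNA-binding protein, had the lowest, with 15.7 and 20.0 against 12.1 and 10.2 CPM (−0.68 ± 0.17, adjusted p = 0.204, edgeR). In both genes the T4A libraries lay near each other. DESeq2 called both among the 15 to which it gave an adjusted p, beside 99 of all 23321 genes tested. With the replicate number as a block edgeR called both (0.78 and −0.68), beside 433 of 23321 genes. With the GC trend removed it called both as well (0.77 and −0.68), beside 338 of 23162 genes. Without T4A replicate 1 CCDC80 was at 0.73 and RBMS3 at −0.81. Neither was called without either of the WT libraries. Without T4A replicate 2, which left a single T4A library, CCDC80 stood at 0.83 and FJX1 at −0.74. PTPN14, a phosphatase that restrains YAP1, stood at −0.28 ± 0.09 and IGFBP3, a binding protein for insulin-like growth factors, at 0.36 ± 0.20. At an unadjusted p below 0.05, 2 of the list were lower and 2 higher, beside 8.02% and 7.45% of all genes.

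Of the 25 regulators of both routes none was called by edgeR, or by DESeq2 among the 23 to which it gave an adjusted p, 6 were lower at an unadjusted p below 0.05 (beside 8.02% of all genes) and none was higher. Both T4A libraries lay below both WT libraries for 11 of the 25 and above them for none (beside 24.7% and 24.8% of all genes), and the median was −0.13. The list was read at a median GC content of 41.9%, and T4A replicate 1 lay below T4A replicate 2 for 4 of its 25 genes. Its median was −0.18 without T4A replicate 1 and −0.12 with the GC trend removed. MRTFB, a coactivator of SRF, had 192 and 201 CPM in WT and 154 and 142 CPM in T4A (−0.41 ± 0.09 (SE), adjusted p = 0.184, edgeR). DESeq2 gave it an adjusted p of 0.000459 at a log2 fold change of −0.41, under the 1.5-fold limit. How many of all genes passed that adjusted p alone is not given here. LIMK1, a kinase that protects filaments by inhibiting cofilin, had 12.5 and 11.8 against 8.13 and 9.60 CPM (−0.46 ± 0.16, adjusted p = 0.258, edgeR). It stood at −0.60 without T4A replicate 2, and at −0.34 without T4A replicate 1, its lowest library. Of the other coactivators, MRTFA stood at −0.11 ± 0.10, YAP1 at 0.06 ± 0.10 and WWTR1 at −0.26 ± 0.10 (SE; unadjusted p = 0.0359, edgeR). TEAD4, a DNA-binding partner of YAP1, and VGLL4, which competes with YAP1 for TEAD factors, both stood at −0.13 ± 0.09.

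The 28 actin assembly factors, 26 of which were tested, held no called gene by edgeR, or by DESeq2 among the 24 to which it gave an adjusted p. At an unadjusted p below 0.05 (edgeR), 1 was lower and 0 were higher, beside 8.02% and 7.45% of all genes. The median of the list was 0.003. CTTN (cortactin, which stabilizes branched filaments) had 89.3 and 80.8 CPM in WT and 60.6 and 77.7 CPM in T4A (−0.30 ± 0.13 (SE), adjusted p = 0.311, edgeR), with T4A replicate 1 the lowest as for the actins, and −0.12 without it. CAPZB, which caps filament ends, stood at −0.21 ± 0.10, ACTR3, a subunit of the ARP2/3 complex that starts branches, at 0.12 ± 0.10, and VASP, which elongates filaments, at 0.16 ± 0.10. ARPC1A was listed at 0 in all 4 libraries. Reads over 2 genes of a strand were left out of the counts, so a listed 0 need not mean that no RNA was made. Whether this holds for ARPC1A was not tested. Counts of the lists are descriptions, and no list was tested against other genes.

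**Figure D4:**
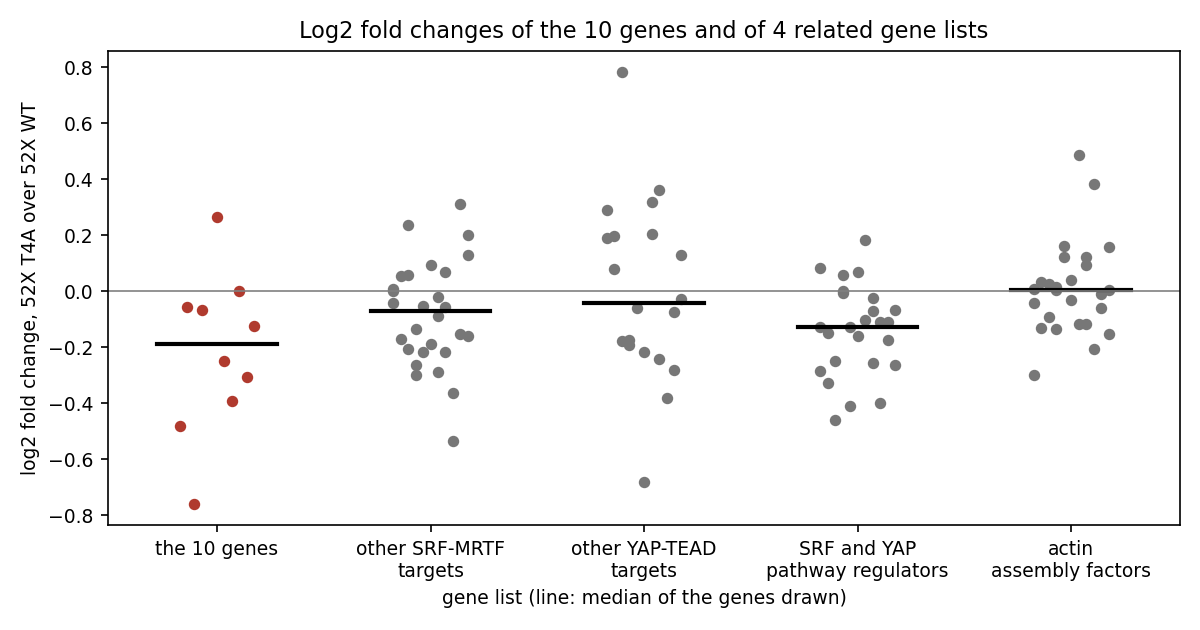
Log2 fold changes of T4A over WT for the 10 genes (red) and the tested genes of 4 related lists (gray), 1 point per gene, with the median as a line. The medians run from −0.19 for the 10 genes to 0.003 for the actin assembly factors, and each cloud of points spans 0.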

How the data were processed

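The authors deposited raw counts of reads per gene with unique alignments for all 4 libraries. The submitters' processing notes name cutadapt 4.6, STAR 2.7.11b and the build GRCh38, and the program that counted is not given in the sources used here. The listed length equals the listed span of every gene, so intron reads were counted. All 1453 lncRNA and snoRNA genes nested in a gene of their own strand with at least 1000 counts are listed at 0, against 16.4% of 3091 nested on the other strand, so strand was used and reads over 2 genes of a strand were left out. Symbols (58742 matched by gene ID) and GC content come from a GRCh37 annotation.

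Counts were tested with edgeR 4.0.16 in R 4.3.3 (TMM, default filter on low counts, quasi-likelihood test, Benjamini-Hochberg adjustment over all genes), after the test had been tried on simulated counts. Standard errors are the log2 fold change over the root of F. DESeq2 1.42.0, other scalings, filters, a replicate block, trends on length and GC, and each library left out were alternatives. The 10 genes and the lists were chosen with earlier results of these data known. Named besides the 10 genes are, per list, the 2 highest and 2 lowest log2 fold changes among genes with a mean count of at least 50 and no overlap between groups, the other actins, MRTFA, MRTFB, YAP1, WWTR1 and POLR2A. Cell type markers, ARPC1A and genes called only when a library was left out (FLNC, PDLIM7, FJX1) were named after their values were seen. The similarity of expression patterns was not computed over 4 libraries. Some genes of the lists are not reported here.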

Additional observations from a re-analysis of the deposited data

How the results depend on the processing

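None of the 10 genes was called under 16 of the 17 alternatives, though DESeq2 gave MYL9 no adjusted p. The exception was leaving out 52X T4A replicate 2, which left T4A a single library. There the log2 fold changes of ACTB, ACTG1 and FLNA were −0.80, −0.65 and −1.11. In that setting, with 25097 genes tested, the count of all called genes was also the highest of all alternatives. Without 1 library each, the count of called members ran from 0 to 3, the members' median log2 fold change from −0.34 to −0.13, that of the other SRF-MRTF targets from −0.13 to −0.030, that of the YAP-TEAD targets from −0.047 to −0.013, that of the regulators from −0.18 to −0.084, that of the actin assembly factors from −0.052 to 0.015, and the count of all called genes from 0 to 2500. The count of all called genes was 1 in the main test, 99 by DESeq2, 204 with scaling to ACTB, 65 without the filter, 433 with the replicate number as a block, 2 with the length trend removed, 0 with block and length trend together, 338 with the GC trend removed and 677 with block and GC trend together. The cause of these differences in counts was not tested. Whether the replicate numbers pair the libraries was not settled. The difference within the WT pair and that within the T4A pair correlated at 0.00498 over 23321 genes. That value cannot decide, since the 2 differences went with GC content in opposite directions (r of 0.164 for WT and −0.525 for T4A). The block called none of the 10 genes.

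With scaling to ACTB the medians were 0.30 for the members, 0.45 for the SRF-MRTF targets, 0.50 for the YAP-TEAD targets, 0.41 for the regulators and 0.54 for the assembly factors, beside 0.53 for all genes. Library size without TMM gave −0.022, 0.0094 and 0.053 for the SRF-MRTF targets, the YAP-TEAD targets and the assembly factors, beside 0.050 for all genes. The YAP-TEAD median was −0.067 without the filter and −0.0095 over protein-coding genes only. With the GC trend removed the SRF-MRTF and YAP-TEAD medians were −0.013 and 0.073, and with the block as well −0.012 and 0.075.

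Signs turned for some genes. With scaling to ACTB, ACTG1 was at 0.10, SRF at 0.18, FLNA at 0.15, TPM1 at 0.47, CCN1 at 0.49 and CCN2 at 0.42. VCL (0.0003 in the main test) was at −0.024 without the filter, at −0.0019 with the block and at −0.020 with the GC trend removed, with or without the block. FLNA was at 0.047 and 0.036 with the GC trend removed, without and with the block. Without 1 library each, VCL ran from −0.10 to 0.089, FLNA from −1.11 to 0.29, TPM1 from −0.16 to 0.024, CCN1 from −0.19 to 0.038 and CCN2 from −0.33 to 0.082. MYL9 ran from −1.32 to −0.0066 and TAGLN2 from 0.13 to 0.39, both with 1 sign. With 2 libraries per group, the spread between libraries exceeded the counting error for the pair of T4A libraries of ACTB (−0.56 against 0.026 on the log2 scale) and the pair of WT libraries of MYL9 (1.27 against 0.34).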
